A study of Nicotiana tabacum with 36 samples.

Results

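The 200 gene models described here are the tobacco models whose RNA was most concentrated in the shoot apex, the growing tip of the plant. RNA was sequenced from shoot apex, shoot and root of *Nicotiana tabacum* K326, a Virginia tobacco, in plants 56 days old under long days with 18 h light and 6 h dark. Each tissue was harvested at 4 time-points, ZT0, ZT6, ZT12 and ZT18, counted in hours from dawn, with 3 replicates, so that 12 libraries stood for each tissue and 36 for the series. The shoot samples were whole shoots by the study's methods, and whether the apex was removed from them is not stated in the sources used here. All plants were of 1 cultivar, and the labels name no treatment.

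Members were chosen on the deposited TPM (transcript abundance, the expected read count divided by model length and scaled to 1 sum in each library). For each of the 69500 gene models the median TPM over the 12 libraries of a tissue was taken. Models with a shoot apex median of at least 10 TPM were kept where that median, with 0.1 TPM added, was at least 4 times the larger of the shoot and root medians with 0.1 TPM added. This held for 530 models, of which the 200 with the largest ratio are the members. The same rule gave 264 models with shoot in the place of shoot apex, and 1785 with root. Because the tissue levels chose the members, their height in shoot apex over shoot and root is described below without a test. What the rule did not use, the order of shoot and root, the time of day and the sequence models themselves, is compared with the other gene models.

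The shoot apex of a flowering plant holds the apical meristem, a dome of dividing stem cells, together with the youngest leaf primordia and young stem. Cells leave the dome, divide further and differentiate into leaf, stem and vascular tissue, and after floral induction the same tip gives rise to flowers. Many plant genes also follow the day through light and the circadian clock, which sets phases of high and low RNA in leaves and growing tips alike. In bulk tissue a lower level can come from fewer cells of a type or from less RNA per cell, and these cannot be told apart. The gene models carry identifiers only, and 0 of the 200 members had a match in RefSeq's tobacco gene table, so no function is given for any of them and the tissue labels could not be checked against marker genes by name.

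The libraries held between 4125090 and 21265992 expected counts, and 10608197 to 21265992 in shoot apex. The study lists 5 libraries with a low share of mapped reads, all of root or shoot, and of these shoot ZT6 replicate 1 stood apart most, with 36.6% of its counts on its 10 highest gene models. Another of the 5, root ZT18 replicate 2, held 13332241 expected counts in its deposited file, within the range of the other root libraries and far above the number of mapped reads listed for it, so that its listed share does not describe that file. In shoot ZT6 replicate 1 the median member was at 0.44 TPM, against 2.19 to 8.77 TPM in the other 11 shoot libraries. Without the 5 libraries 463 models met the rule and 178 of the 200 members were again among the first 200. The libraries also fell into 2 classes by the length of the models their counts lay on, with 13 of 36 in the class with counts on longer models. In shoot apex these were ZT6 replicates 1 and 3, ZT12 replicate 1 and ZT18 replicate 3. What made these classes is not stated in the sources used here.

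The members ranged widely in level within shoot apex and were low elsewhere. Their shoot apex medians lay between 10.1 and 1201 TPM, with a median of 47.9 TPM, and 60 members were at 100 TPM or more and 23 at 300 TPM or more. The median member had a shoot median of 4.33 TPM and a root median of 0.633 TPM. The root median was under 1 TPM in 114 members and 0 in 29, while the shoot median was under 1 TPM in 20. Together the members took up 1.72% to 3.85% of all TPM in the shoot apex libraries, 0.146% to 1.38% in the shoot libraries and 0.0857% to 0.234% in the root libraries. The largest shoot share came from shoot ZT6 replicate 1, where a single member, Nitab4.5_0007400g0110.1, was at 9640 TPM. The ratio that ranked the members ran from 6.21 to 132 with a median of 8.76. It was 10 or more in 83 members, 20 or more in 29 and 50 or more in 10.

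Every shoot apex library lay above every shoot and root library for 129 of the 200 members, and for 1.78% of all gene models with a count in any library. Since the rule used these values, that count describes how sharply the members were separated and supports nothing further. Against root alone the 12 shoot apex libraries were all higher in 174 members, against 8.25% of all gene models with a count, and against shoot alone in 143, against 4.0%. With means over the 3 replicates of each time-point, 197 members were highest in shoot apex at all 4 time-points, and 150 were at least 4 times the larger of the other tissues at each of them, with 0.1 TPM added to both means as in the rule. The median ratio over the members was 6.62, 7.72, 8.42 and 10.8 over the 4 time-points from ZT0 to ZT18. These means include the libraries with a low mapped share and the uneven shoot replicates of ZT0, and a trend over the day was not tested.

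**Figure D1:**
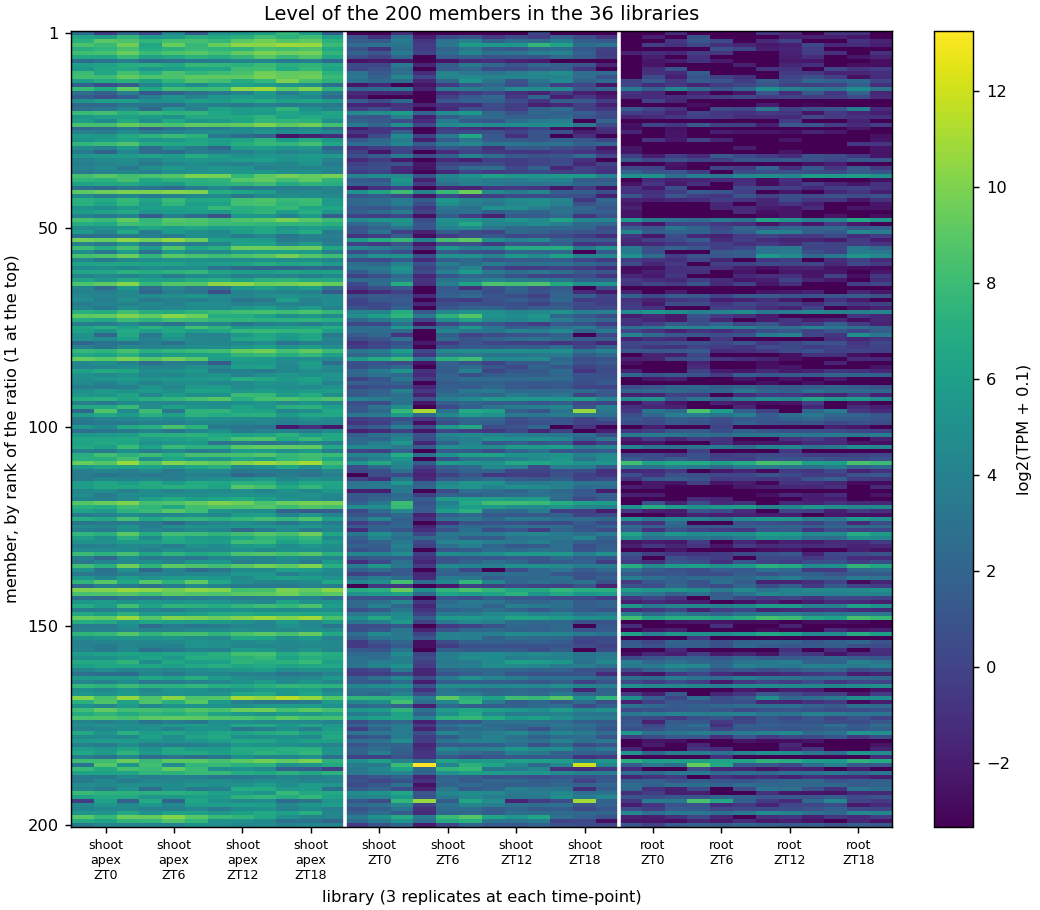
Level of each of the 200 members (rows, ordered by the ratio of shoot apex to the larger of shoot and root, largest at the top) in each of the 36 libraries (columns, shoot apex, shoot and root from left to right, 3 replicates at each time-point), as log2(TPM + 0.1). The shoot apex block is bright from top to bottom, the root block is darkest, and the single dark shoot column is ZT6 replicate 1, in which the median member was at 0.44 TPM.

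The member with the largest ratio, Nitab4.5_0001626g0020.1, had a moderate level in the apex and was at or near 0 outside it. Its shoot apex libraries ran from 0.73 TPM over a median of 13.1 TPM to 201 TPM, whereas its highest shoot library was at 0.96 TPM and its highest root library at 0.54 TPM, and the median was 0 in both. The apex range therefore reached down into the range of the shoot libraries. The model is 318 bases long, and the ratio of 132 depends on the 0.1 TPM added to both medians.

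The next 9 members by ratio had apex medians between 11.2 and 653 TPM. Nitab4.5_0001675g0060.1 ran from 49.8 TPM over a median of 117 TPM to 281 TPM in shoot apex, against 0.14, 1.28 and 7.60 TPM in shoot and 0, 0.055 and 1.62 TPM in root (lowest, median and highest library). Nitab4.5_0000813g0070.1 had 153, 360 and 822 TPM in shoot apex, against 0.45, 4.63 and 16.1 TPM in shoot and 0, 0.25 and 2.08 TPM in root. For both models all 12 apex libraries lay above all 24 others. Nitab4.5_0000813g0050.1, which lies on the same scaffold as the second of these with 1 model number between them, had 181, 432 and 937 TPM in shoot apex, against 0.75, 6.40 and 19.1 TPM in shoot and 0, 0.305 and 0.72 TPM in root. Its levels did not overlap between apex and the other tissues either.

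Nitab4.5_0001402g0100.1 was the most abundant of the 10, with 84.2, 653 and 1890 TPM in shoot apex, against 0.68, 8.94 and 197 TPM in shoot and 0, 0.305 and 1.07 TPM in root. Its highest shoot library, ZT12 replicate 3, lay above its lowest apex library, ZT6 replicate 1, so the tissues overlapped. Nitab4.5_0002027g0180.1 was the least abundant, with 5.02, 11.2 and 16.9 TPM in shoot apex, against 0, 0.095 and 0.36 TPM in shoot and 0, 0.08 and 0.43 TPM in root. Its 12 apex libraries stayed clear of the others although the level was low. The remaining members of the first 10, Nitab4.5_0001657g0050.1, Nitab4.5_0013539g0020.1, Nitab4.5_0013249g0010.1 and Nitab4.5_0001498g0010.1, had shoot apex medians of 188, 135, 136 and 85.3 TPM, and in each the lowest apex library lay above the highest library of the other tissues.

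**Figure D2:**
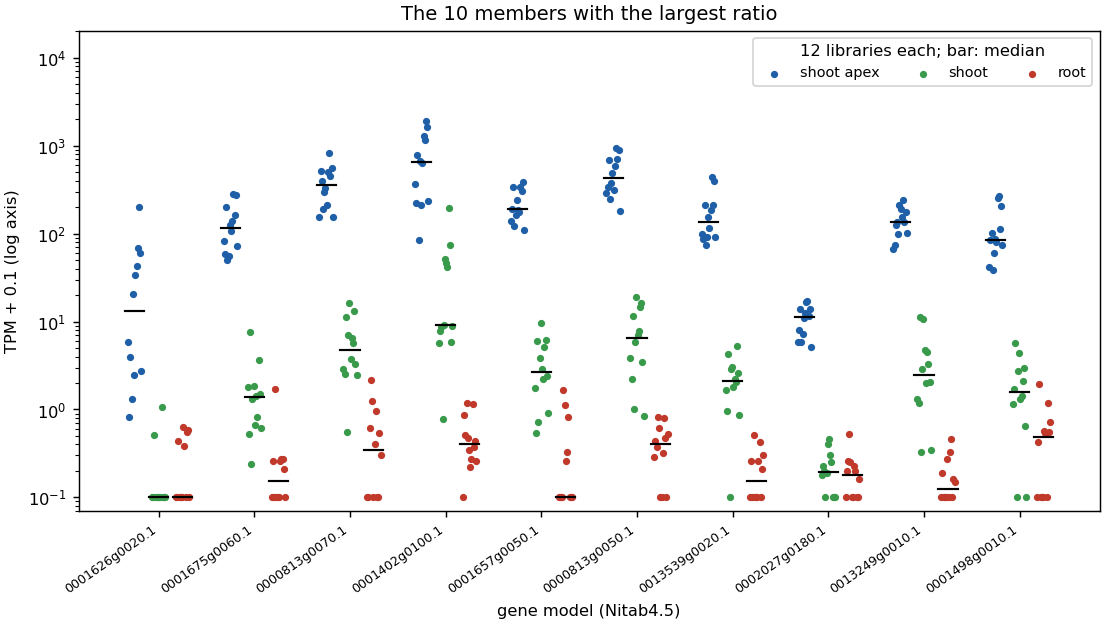
TPM + 0.1 on a log axis for the 10 members with the largest ratio, labelled without the shared prefix Nitab4.5_, with 1 point for each of 12 libraries in shoot apex, shoot and root and a bar at the median. The apex points stand clear of the rest in 8 of the 10, and Nitab4.5_0001626g0020.1 and Nitab4.5_0001402g0100.1 reach down to the level of the highest shoot library.

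The most abundant members had smaller ratios and were also found in shoot or root. Nitab4.5_0009555g0010.1 led with 356, 1201 and 2775 TPM in shoot apex, against 13.4, 178 and 534 TPM in shoot and 0.98, 6.23 and 28.9 TPM in root. Nitab4.5_0000109g0350.1 followed with 300, 1064 and 1610 TPM in shoot apex, against 29.2, 143 and 702 TPM in shoot and 9.13, 22.5 and 58.6 TPM in root. Both overlapped with shoot, and they were the only members with a shoot median of 100 TPM or more. Nitab4.5_0008329g0050.1 and Nitab4.5_0002344g0070.1, with apex medians of 1015 and 954 TPM, showed the opposite order of the other tissues, with shoot medians of 42.0 and 41.5 TPM and root medians of 139 and 114 TPM. These were the only members with a root median of 100 TPM or more. Nitab4.5_0002966g0060.1, with 304, 682 and 1066 TPM in shoot apex, had 1.9, 85.2 and 282 TPM in shoot and was close to absent from root, at 0, 0.26 and 1.87 TPM.

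The limit of 200 fell among models with almost equal ratios. Just inside it stood Nitab4.5_0002229g0060.1 (apex median 222 TPM, ratio 6.258), Nitab4.5_0002814g0050.1 (52.1 TPM, ratio 6.226) and Nitab4.5_0002093g0120.1 (17.9 TPM, ratio 6.2065). Just outside it stood Nitab4.5_0003819g0010.1 (263 TPM, ratio 6.206), Nitab4.5_0005909g0020.1 (153 TPM, ratio 6.196) and Nitab4.5_0001628g0020.1 (422 TPM, ratio 6.177). The last of these reached 60683 TPM in shoot ZT6 replicate 1.

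Although the rule held both shoot and root below the apex, it did not set which of them was higher, and most members were higher in shoot. Of the 200 members, 141 (70.5%) were higher in shoot than in root at an adjusted p under 0.05 (quasi-likelihood test of edgeR, Benjamini-Hochberg adjusted over 44594 gene models), against 25.6% of all gene models tested. A further 17 members (8.5%) were lower in shoot than in root, against 30.9% of all gene models. The median log2 difference of shoot minus root was 3.21 over the members and -0.07 over all gene models tested. All 200 members passed the filter on low counts through shoot apex, where they were chosen to be high, while 183 reached its level (10 counts at the median library size, in at least 3 libraries) in shoot and 100 in root, so the shares of members and of all gene models are not taken over models filtered alike. Both levels were capped by the rule, and a member low in both tissues can differ by a large factor between them. The shoot samples were whole shoots, for which removal of the apex is not stated. Apex RNA within them and RNA of the rest of the shoot cannot be told apart. Without the 5 libraries with a low mapped share the counts were 134 and 15.

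The 5 members with the largest differences were near the limit of detection in root. Nitab4.5_0000874g0030.1 had 0.71, 8.73 and 28.0 TPM in shoot (lowest, median and highest library), against 0, 0.02 and 0.09 TPM in root, and the tissues did not overlap. Its log2 difference of shoot minus root was 8.42 ± 0.37 (SE, adjusted p = 4.94e-19, edgeR's quasi-likelihood test), beside 32.1, 57.2 and 96.6 TPM in shoot apex. Nitab4.5_0001829g0010.1 had 1.14, 5.75 and 65.4 TPM in shoot and a root median of 0, with a log2 difference of 8.33 ± 0.50 (SE). Nitab4.5_0002966g0060.1, Nitab4.5_0001833g0060.1 and Nitab4.5_0000421g0060.1 had log2 differences of 8.15 ± 0.64, 7.80 ± 0.44 and 7.57 ± 0.58 (SE). The size of such a difference rests on a few reads in root, and only its direction is well measured.

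The members that were lower in shoot than in root differed far less. Nitab4.5_0002093g0060.1 had 0.25, 6.24 and 15.1 TPM in shoot, against 10.3, 22.4 and 67.0 TPM in root, beside 58.9, 166 and 353 TPM in shoot apex. The shoot and root libraries of this member overlapped, and its log2 difference was -1.901 ± 0.39 (SE, adjusted p = 1.21e-04, edgeR's quasi-likelihood test). Nitab4.5_0005960g0020.1, Nitab4.5_0000990g0020.1, Nitab4.5_0008329g0050.1 and Nitab4.5_0027235g0010.1 had log2 differences of -1.84 ± 0.37, -1.81 ± 0.44, -1.77 ± 0.36 and -1.77 ± 0.37 (SE). None of the 17 reached a log2 difference beyond -1.901, whereas the differences in the other direction reached 8.42.

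**Figure D3:**
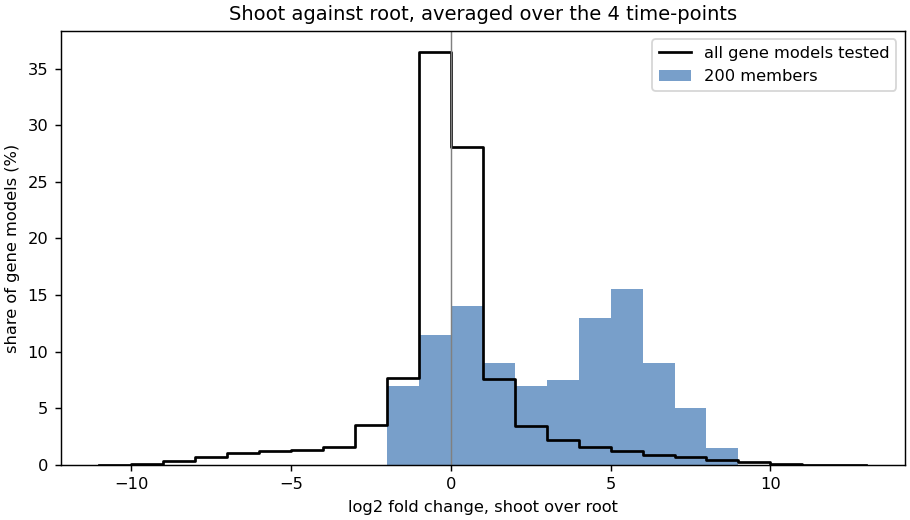
Distribution of the log2 fold change of shoot over root, averaged over the 4 time-points, for the 200 members (filled bars) and for all 44594 gene models tested (line), each as a share of its own total in bins 1 unit wide. The line peaks around 0, whereas the members have a peak near 0 and a broader peak between 4 and 7, with a median of 3.21.

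The time of day was not part of the rule. Within shoot apex, 22 of the 200 members (11%) differed between the 4 time-points at an adjusted p under 0.05 (edgeR's quasi-likelihood F test, Benjamini-Hochberg adjusted), against 5.39% of all gene models tested. The rule chose members to be high in this tissue, and 17513 gene models reached its minimum of 10 TPM there. No share over models of like level was taken, so the shares given for shoot apex time-points do not compare like with like. Of the 22 members, 16 had their highest mean at ZT0 or ZT6, in the earlier part of the light period, and 12 of those 16 were lowest at ZT18. The other 6 had their highest mean at ZT12 or ZT18. No such split was taken over the other gene models called in shoot apex. The highest time-point mean was between 2.96 and 1035 times the lowest, with a median of 24.9. Every ZT0 and ZT6 library lay above every ZT12 and ZT18 library in 15 of the 200 members (7.5%), against 0.702% of all gene models, and 14 of these were among the 16. The opposite order without overlap was found in 3 members (1.5%), against 0.913%, and in none of the 22. The count of 22 was between 15 and 27 when each library was left out in turn.

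The 10 members with the smallest p in this test were all of the early kind, at their lowest at ZT18. Nitab4.5_0001229g0120.1 had 840, 646 and 1341 TPM in shoot apex at ZT0 and 781, 1481 and 713 TPM at ZT6. It had 71.9, 58.4 and 46.6 TPM at ZT12 and 10.5, 13.4 and 11.1 TPM at ZT18. The 4 sets of replicates formed 3 separate steps, with ZT0 and ZT6 overlapping at the top, and the log2 difference of ZT18 minus ZT0 was -6.52 ± 0.72 (SE, adjusted p = 9.74e-07, edgeR's quasi-likelihood test).

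Nitab4.5_0000297g0150.1 followed the same course at a similar level. Its replicates had 539, 751 and 1015 TPM at ZT0, 970, 1197 and 1050 TPM at ZT6, 119, 88.3 and 60.9 TPM at ZT12, and 18.9, 21.7 and 17.2 TPM at ZT18. The log2 difference of ZT18 minus ZT0 was -5.49 ± 0.72 (SE, adjusted p = 9.67e-06, edgeR's quasi-likelihood test). Nitab4.5_0005511g0010.1 and Nitab4.5_0012832g0010.1 were also above 400 TPM in every ZT0 and ZT6 library, and fell to between 20.6 and 27.2 TPM and between 22.9 and 42.0 TPM at ZT18.

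Other members of the group came close to 0 late in the day. Nitab4.5_0000982g0170.1 had 42.2, 22.7 and 108 TPM at ZT0, 133, 338 and 160 TPM at ZT6, 10.2, 8.84 and 7.40 TPM at ZT12, and 0.12, 0.37 and 0.12 TPM at ZT18. The mean at ZT6 was 1035 times the mean at ZT18, the widest range of the 22. Nitab4.5_0029285g0010.1 had 52.1, 43.2 and 101 TPM at ZT0, 166, 237 and 157 TPM at ZT6, 9.88, 5.58 and 3.25 TPM at ZT12, and 0.08, 0.17 and 0.33 TPM at ZT18. At ZT18 both were at the level of the shoot libraries, so that their place among the members rests on the other time-points. Nitab4.5_0004269g0080.1 and Nitab4.5_0000495g0040.1 had ZT6 means of 362 and 329 TPM and ZT18 means of 2.25 and 3.26 TPM.

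Nitab4.5_0002814g0050.1 and Nitab4.5_0011549g0020.1 completed the 10. Nitab4.5_0002814g0050.1, a model of 1626 bases, had apex means of 121, 266, 29.5 and 6.45 TPM over the 4 time-points from ZT0 to ZT18. Nitab4.5_0011549g0020.1 was the least abundant and the least variable, with 24.98, 29.9 and 21.5 TPM at ZT0, 27.4, 22.8 and 28.0 TPM at ZT6, 7.94, 4.31 and 3.43 TPM at ZT12, and 3.67, 4.17 and 3.99 TPM at ZT18. Its replicates at ZT0 and ZT6 overlapped with each other and lay clear of the later ones.

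Outside the first 10, a pattern seen after the values were known was a peak at ZT0 with the lowest mean at ZT12. Nitab4.5_0008575g0010.1 had 72.7, 101 and 83.6 TPM at ZT0, 32.5, 39.2 and 48.6 TPM at ZT6, 7.65, 9.72 and 7.82 TPM at ZT12, and 11.8, 17.4 and 13.6 TPM at ZT18. Nitab4.5_0003463g0070.1 and Nitab4.5_0001980g0040.1 were likewise highest at ZT0 and lowest at ZT12, with means of 89.5 and 218 TPM at ZT0 and 12.98 and 61.5 TPM at ZT12.

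**Figure D4:**
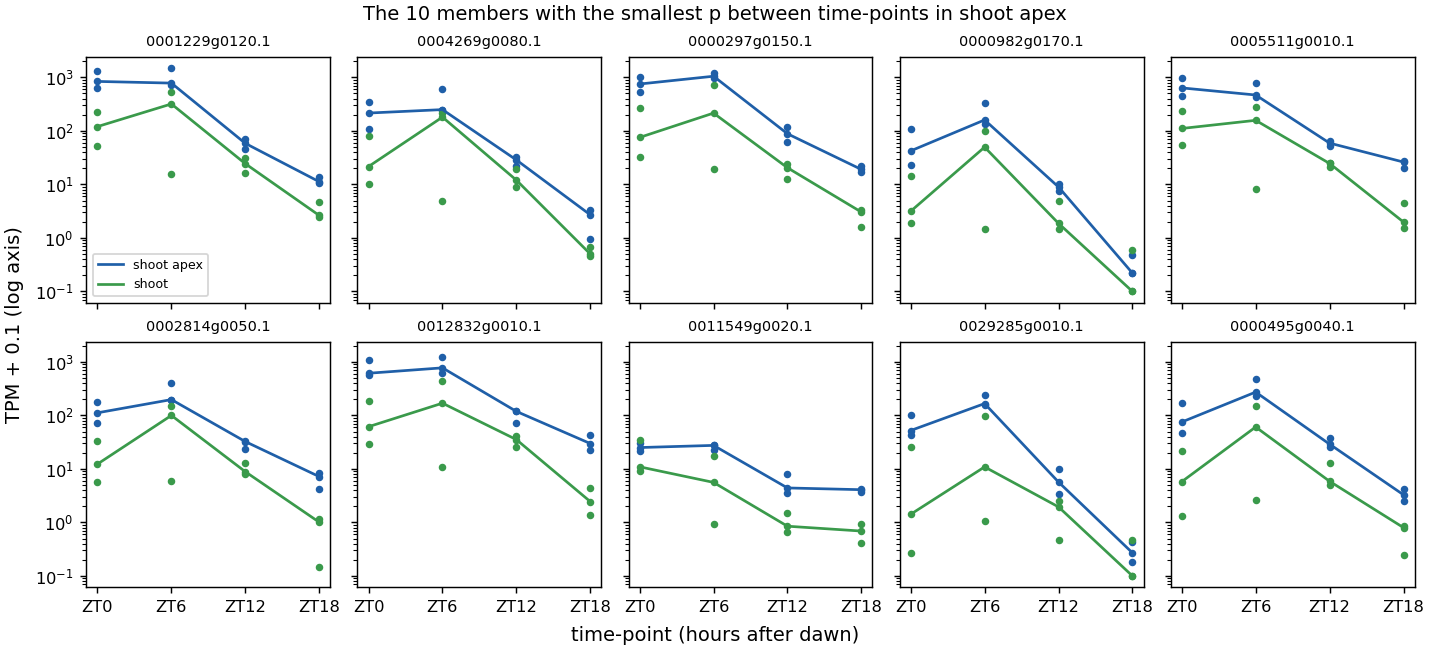
TPM + 0.1 on a log axis against time-point for the 10 members with the smallest p between time-points in shoot apex, labelled without the prefix Nitab4.5_, with 3 replicate points at each time-point in shoot apex and in shoot and a line through the medians. All 10 are at their lowest in shoot apex at ZT18, and the low shoot point at ZT6 in each panel is replicate 1, the library that stood apart.

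The 6 members that peaked later included a pair with nearly the same values. Nitab4.5_0005973g0010.1 had 3.37, 1.40 and 2.91 TPM at ZT0, 17.6, 47.9 and 23.9 TPM at ZT6, 55.5, 77.0 and 55.2 TPM at ZT12, and 34.5, 28.2 and 6.14 TPM at ZT18. Nitab4.5_0001180g0140.1 had 2.96, 1.60 and 2.95 TPM, 13.7, 36.0 and 16.7 TPM, 41.3, 57.3 and 39.5 TPM, and 28.3, 20.9 and 5.32 TPM at the same time-points. Both models are 1197 bases long, both were lowest at ZT0 in every replicate, and they were chosen for mention after their values were seen. The log2 differences of ZT6 minus ZT0 were 3.34 ± 0.81 and 2.95 ± 0.77 (SE, adjusted p = 0.0168 and 0.0269, edgeR's quasi-likelihood test).

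The top-ranked Nitab4.5_0001626g0020.1 was also among these 6. It had 5.76, 0.73 and 3.89 TPM at ZT0, 1.2, 20.4 and 2.37 TPM at ZT6, 33.4, 42.8 and 68.4 TPM at ZT12, and 201, 59.8 and 2.63 TPM at ZT18. The ZT18 replicates spanned nearly the whole range of the member, and its call (adjusted p = 0.0142, edgeR's quasi-likelihood F test) was lost with DESeq2 (adjusted p = 0.0776), with limma on log2(TPM + 0.1) (0.0945), with shoot apex fitted alone (0.231), and without ZT0 replicate 2 (0.0555) or ZT18 replicate 1 (0.0846). The 3 others were Nitab4.5_0000304g0150.1, Nitab4.5_0000807g0190.1 and Nitab4.5_0000513g0170.1, with ZT12 means of 163, 35.4 and 37.4 TPM and ZT0 means of 39.5, 10.96 and 12.6 TPM.

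Between single time-points, 12 members were lower at ZT18 than at ZT0 (6.0%, against 1.16% of all gene models) and 2 were higher (1.0%, against 0.565%). Those higher at ZT18 were Nitab4.5_0001626g0020.1 and Nitab4.5_0005973g0010.1, and the count of 2 became 0 with the replicate block, with shoot apex fitted alone, with limma on log2(TPM + 0.1), and without any 1 of the ZT0 replicates or ZT18 replicate 1 of shoot apex, and 1 without ZT18 replicate 2. Between ZT6 and ZT12, 11 members fell (5.5%, against 0.798%), while 0 rose at the adjusted threshold (against 0.644%), with 57 members at an unadjusted p under 0.05 in either direction, 5 members higher at ZT12 by DESeq2, 1 by limma on log2(TPM + 1), and 6 when shoot apex ZT12 replicate 1 was left out. The fall in 11 members was not the course of the list as a whole, whose median log2 difference of ZT12 minus ZT6 was 0.55 against 0.01 over all gene models. The 11 became 2 without shoot apex ZT12 replicate 3, 5 without ZT12 replicate 2, 5 without ZT6 replicate 2 and 3 with limma on log2(TPM + 0.1). Between ZT0 and ZT6, 3 members rose (1.5%, against 1.59%), namely the pair of 1197 bases and Nitab4.5_0001158g0100.1. The number that fell was 0 (against 1.2%), with 16 at an unadjusted p under 0.05 in either direction. That 0 became 2 with DESeq2 or with shoot apex fitted alone, and 1 without shoot apex ZT0 replicate 2 or ZT12 replicate 1. The 3 that rose became 0 without any 1 of the ZT0 replicates of shoot apex or with limma on log2(TPM + 0.1), 1 without ZT6 replicate 2, and 5 with DESeq2 or without shoot ZT18 replicate 3. Between ZT12 and ZT18, 2 members fell (1.0%, against 0.321%), Nitab4.5_0000982g0170.1 and Nitab4.5_0004269g0080.1, and 0 rose (against 0.105%), with 15 at an unadjusted p under 0.05 in either direction and 0 higher by DESeq2. The 2 that fell became 0 without shoot apex ZT12 replicate 2, without any 1 of its ZT18 replicates or with limma on log2(TPM + 1), 1 without ZT12 replicate 3 or with the replicate block, and 5 with DESeq2. The tests are edgeR's quasi-likelihood tests.

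Most of the members called in shoot apex were also called in shoot, where their level was lower. In shoot 32 members (16.0%) differed between time-points, against 8.02% of all gene models tested (edgeR's quasi-likelihood F test, Benjamini-Hochberg adjusted). All members passed the filter through shoot apex and 183 reached its level in shoot, so these shares are not taken over models filtered alike. Of the 32 members, 19 were also among the 22 called in shoot apex, which is 86.4% of the 22 and 59.4% of the 32. The time of the highest mean was the same in both tissues for 16 of the 19, and so was the time of the lowest mean. No such overlap was taken over all gene models. Whether the apex was removed from the whole-shoot samples is not stated. A course in shoot therefore cannot be told apart from that of apex tissue within them. Nitab4.5_0001229g0120.1 had 840, 646 and 1341 TPM in shoot apex at ZT0, against 51.7, 120 and 222 TPM in shoot, and 10.5, 13.4 and 11.1 TPM in shoot apex at ZT18, against 4.63, 2.33 and 2.53 TPM in shoot. At ZT6 the shoot replicates of this member were far apart, at 15.3, 319 and 544 TPM, and the lowest was replicate 1. Apex means were 7.18, 3.39, 2.47 and 3.70 times the shoot means at the 4 time-points from ZT0 to ZT18.

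With shoot ZT6 replicate 1 included, 0 of the 200 members had every ZT0 and ZT6 shoot library above every ZT12 and ZT18 shoot library, against 0.0269% of all gene models. Without that library, an omission chosen after the data had been seen, 9 members (4.5%) did, against 1.25%. These shares too are not taken over models filtered alike. The number of members that differed between time-points in shoot was 27 without the 5 libraries with a low mapped share, and 19 with the shoot libraries fitted alone.

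No member had time-point differences that differed between shoot apex and shoot at an adjusted p under 0.05, against 0.065% of all gene models tested (edgeR's quasi-likelihood F test, Benjamini-Hochberg adjusted). At an unadjusted p under 0.05 there were 13 members, limma called 0, and DESeq2 called 1, Nitab4.5_0001980g0040.1, with an adjusted p of 0.0476. That member had time-point means of 218, 184, 61.5 and 74.3 TPM in shoot apex, against 37.0, 25.5, 3.67 and 2.60 TPM in shoot. The 3 members called in shoot apex and not in shoot, Nitab4.5_0001626g0020.1, Nitab4.5_0000304g0150.1 and Nitab4.5_0000513g0170.1, are therefore not shown to differ between the tissues in their time course.

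In root 1 member (0.5%) differed between time-points, against 0.195% of all gene models tested. With 100 members at the filter's level in root, these shares are not comparable and nothing is read from them. The member was Nitab4.5_0000297g0150.1, with 0.36, 0.39 and 0.72 TPM in root at ZT0, 3.01, 1.92 and 0.75 TPM at ZT6, 0, 0.10 and 0 TPM at ZT12 and 0.28, 0.52 and 0.16 TPM at ZT18 (adjusted p = 0.0253, edgeR's quasi-likelihood F test). The highest root library was ZT6 replicate 1, listed with a low mapped share. The call was lost without the 5 such libraries, and when any 1 of ZT6 replicates 1 and 2, ZT12 replicates 1 and 3 or ZT18 replicate 3 of root was left out.

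The members varied more between shoot apex libraries than other gene models of that tissue. The SD of log2(TPM + 0.1) over the 12 apex libraries had a median of 0.75 in the members, against 0.46 in the 17313 other models with an apex median of at least 10 TPM. With 0.1 TPM added, the highest apex library was at least 5 times the lowest in 54.0% of the members, against 15.5% of the other models. The most variable were Nitab4.5_0029285g0010.1, Nitab4.5_0000982g0170.1, Nitab4.5_0004269g0080.1, Nitab4.5_0001229g0120.1 and Nitab4.5_0001626g0020.1, all of which differed between time-points. Replicates of 1 time-point also differed: the members summed to 38512 TPM in ZT12 replicate 3 and 17229 TPM in ZT18 replicate 3, and to 37357 TPM in ZT18 replicate 2. In 58 members the highest of the 12 apex libraries was ZT12 replicate 3, a count that was not taken over other gene models.

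The 4 apex libraries with counts on longer models stood apart without overlap in few members. All 4 lay above the other 8 in 8 members (4.0%), against 22.4% of all gene models tested, and below the other 8 in 10 members (5.0%), against 3.38%. The members were chosen to be high in shoot apex, and no share over models of like level or length was taken. These shares therefore do not compare like with like. Nitab4.5_0001425g0160.1, chosen after its values were seen, had 2.70, 5.37, 1.63 and 3.16 TPM in the 4 libraries and 9.83 to 48.3 TPM in the other 8. Nitab4.5_0003042g0040.1, chosen in the same way, had 70.2, 79.7, 103 and 99.98 TPM in the 4 and 19.4 to 32.2 TPM in the other 8. With this class added to the fit, 29 members differed between time-points in shoot apex, the same 22 among them. With medians taken over the 13 libraries of this class alone, 101 of the members were among the first 200, and with the other 23 libraries alone 144 were.

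In the other tissues a pair of libraries was the highest for many members. Of the 24 shoot and root libraries, shoot ZT0 replicate 3 was the highest for 63 members and shoot ZT6 replicate 3 for 38, and both are in the class with counts on longer models. Shoot ZT12 replicate 1, also of that class, was the highest for 15, and shoot ZT18 replicate 1, outside it, for 17. No such counts were taken over all gene models, so they are not shown to be particular to the members. The members summed to 6679 TPM in shoot ZT0 replicate 3, against 1539 and 2415 TPM in the other replicates of that time-point. Without shoot ZT0 replicate 3, an omission chosen after the data had been seen, 570 models met the rule and 184 of the members were among the first 200.

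A pair of members that reached their highest levels in libraries listed with a low mapped share were chosen for mention after their values were seen. Nitab4.5_0007400g0110.1 had 8.17 to 442 TPM in shoot apex. It had 9640 TPM in shoot ZT6 replicate 1 and 4073 TPM in shoot ZT18 replicate 2, against 5.23 to 251 TPM in the other shoot libraries, and 650 TPM in root ZT6 replicate 1. Nitab4.5_0014528g0010.1 had 0.73 to 111 TPM in shoot apex, 1635 and 1934 TPM in the same pair of shoot libraries and 361 TPM in that root library. In Nitab4.5_0006727g0010.1 too the shoot apex mean was below the larger of the other means, at 0.188 times it at ZT6 and 0.086 times at ZT18. All of these satisfied the rule through their medians, and none was called between time-points in shoot apex. Nitab4.5_0007400g0110.1 was called between time-points in shoot, with its highest means at ZT6 (3272 TPM) and ZT18 (1370 TPM). Those means include the shoot libraries with a low mapped share.

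The members were shorter than other gene models of the tissue. Their median length was 970 bases, against 1185 bases in the 17313 other models with an apex median of at least 10 TPM, and 17.0% of the members were under 500 bases against 8.02%. TPM divides by model length, so at the same TPM a short model rests on fewer reads and has a larger relative counting error. Expected counts lay more than 0.005 from a whole number in each of the 12 apex libraries in 72.5% of the members, against 76.6% of the other models, so that reads were shared with similar models about as often, and the levels of such members depend on how the reads were divided.

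The members were spread over 193 scaffolds, and 6 scaffolds held more than 1. No 2 members had successive model numbers. Scaffold 1146 held 3, Nitab4.5_0001146g0080.1, Nitab4.5_0001146g0110.1 and Nitab4.5_0001146g0160.1, with apex medians of 381, 365 and 34.0 TPM, shoot medians of 28.8, 28.8 and 4.24 TPM and root medians of 19.0, 7.89 and 3.77 TPM. The first pair of these had nearly equal levels in shoot apex and in shoot, with lengths of 783 and 306 bases. The other scaffolds with a pair were 343, 813, 2093, 3831 and 6934.

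Some pairs of members with equal length, on different scaffolds, kept a nearly steady ratio. Of 24 pairs of members with equal length, 4 had a ratio of levels, each with 0.1 TPM added, that varied by less than 2-fold over the 12 apex libraries. No such count was taken for pairs of unequal length or for other gene models, so nothing is read from it. Nitab4.5_0001675g0060.1 and Nitab4.5_0013539g0020.1, both 807 bases long and both among the first 10, had a ratio of 0.60 to 0.94. The pair of 1197 bases, Nitab4.5_0005973g0010.1 and Nitab4.5_0001180g0140.1, had a ratio of 0.88 to 1.43 while its level changed 24.4-fold and 18.4-fold between time-point means. Nitab4.5_0006934g0040.1 and Nitab4.5_0000990g0020.1 (411 bases) and Nitab4.5_0006445g0020.1 and Nitab4.5_0000859g0350.1 (977 bases) had ratios of 0.14 to 0.22 and 0.59 to 1.0. All 4 members of 804 bases, Nitab4.5_0000982g0170.1, Nitab4.5_0000495g0040.1, Nitab4.5_0004269g0080.1 and Nitab4.5_0002229g0060.1, were among the 22 that differed between time-points and were highest at ZT6 in shoot apex. The ratios within pairs of these 4 were not steady, and varied 4.29-fold to 49.2-fold over the 12 apex libraries. Whether the models of a pair are copies of 1 gene from the parental genomes of this allotetraploid was not tested, and no sequence of the models was used here.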

How the data were processed

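RNA-seq libraries of 3 tissues at 4 time-points with 3 replicates were used, with groups from the sample labels. The study's methods call the replicates biological, and the labels do not say whether each came from separate plants, so p-values measure the spread between these libraries. The authors trimmed the reads, and used Bowtie 1.1.0 and RSEM 1.2.7 to place them on the Nitab4.5 gene models and estimate levels (CASAVA 1.9.4 is also listed in the submitters' processing notes). They deposited expected counts (estimated counts, not normalized), which share a read between the models it fits, and TPM, scaled by the authors by model length and depth within each library. The strand used in counting is not stated in the sources used here. The deposited matrix of the whole series was not used, since it repeats the expected counts already held for each library, and 0 columns of per-sample values were left unused.

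Members were found from TPM by the stated rule. Expected counts, rounded to whole numbers for the tests, were filtered by filterByExpr (minimum count 10, minimum total 15), which kept 44594 gene models and all 200 members, normalised by TMM and fitted with edgeR 4.0.16 (glmQLFit and glmQLFTest, 12 groups, no block), with Benjamini-Hochberg adjustment over all models tested and a threshold of 0.05. Tests were two-sided. Alternatives in R 4.3.3 comprised limma 3.58.1, DESeq2 1.42.0, other fits and filters, fits without the 5 libraries the study lists with a low mapped share, and each of 36 libraries left out in turn. pandas 2.3.3 and NumPy 2.4.6 under Python 3.11.15 produced the tables, and the fit was tested on simulated data.

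Named members are the 10 with the largest ratio, the 5 with the highest apex median, the 10 with the smallest p between time-points in shoot apex, the 5 with the largest log2 difference in each direction between shoot and root, the 3 on either side of the limit, the 5 with the largest SD in shoot apex, and members of a scaffold holding 3 or more; others named were chosen after their values were seen. The members and this rule were chosen with earlier results of these data known. Depth per library, the total expected count, was 4125090 to 21265992, and the SEs given are those of the fit over all libraries.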

Additional observations from a re-analysis of the deposited data

How the results depend on the processing

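For the members named for their shoot against root difference, that difference kept its result under every alternative. Between ZT0 and ZT6 in shoot apex, the counts higher and lower at ZT6 (3 and 0) became 0 and 1 without ZT0 replicate 2. They became 2 and 2 with shoot apex fitted alone. The number of members that differed between time-points in shoot apex (22) became 14 with limma on log2(TPM + 0.1), and lay between 15 and 27 with 1 library left out. In shoot (32) it became 21 with that limma fit and 19 with shoot fitted alone, and lay between 29 and 41 with 1 library left out. In root (1) it was 2 with DESeq2 and with the length class as a term, and 0 with limma at either pseudocount, without the filter, with the earlier form of glmQLFit, without the 5 libraries with a low mapped share and with root fitted alone, and lay between 0 and 1 with 1 library left out. The interaction (0) became 1 with DESeq2. The number of members that differed between any pair of time-points compared in shoot apex (17) became 31 with DESeq2 and 10 with limma on log2(TPM + 0.1), and lay between 12 and 24 with 1 library left out. A minimum of 1 TPM in place of 10 gave 927 models that met the rule, with 90 members among the first 200, and the 13 libraries with counts on longer models gave 101 members, an alternative chosen after the data had been seen. With 1 replicate number left out the rule was met by 518 to 560 models, and 164 to 168 members were among the first 200. Without shoot ZT0 replicate 3 alone, an omission chosen after the data had been seen, these were 570 and 184. The counts between shoot and root (141 higher, 17 lower) stayed between 123 and 146 and between 13 and 20. The cause of these changes was not tested.

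With the replicate number as a block the counts were 22 in shoot apex, 30 in shoot, 1 in root, 0 for the interaction and 16 between time-points. The numbers do not pair the libraries, as the correlation of deviations of libraries with the same number lay between -0.73 and 0.60 in shoot apex, and 4 of 12 apex libraries correlated best with their own number. Depth limits what can be said of members with few reads, and 100 of the 200 did not reach the filter's level in root.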
